A study of Mus musculus with 36 samples.

Results

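Non-tumoral liver tissue from mice of the AKT-CAT tumour model was compared with liver from mice given PBS, in 6 of the 36 arrays of the study. The members were chosen by their titles: the 3 arrays of non-tumoral AKT-CAT liver (replicates 1 to 3) and the 3 arrays of PBS liver (replicates 1 to 3). All mice were of strain FVB/n. The study profiled tumours and non-tumoral liver from mice with the driver combinations AKT-CAT or AKT-NRAS, left without a toxicant or given DDC or CCl4, together with liver given PBS or DDC and no driver. In the 3 arrays of non-tumoral AKT-CAT liver the tissue carried the AKT-CAT label and neither DDC nor CCl4, and in the 3 arrays of PBS liver the label was PBS alone. A second pair of groups was used only to set beside this comparison: 3 arrays of non-tumoral AKT-CAT liver with DDC, and 3 arrays of liver with DDC alone. The abbreviation CAT was taken to mean beta-catenin, although no label writes it in full. Nor do the labels state how the drivers were delivered, how many cells of the non-tumoral tissue carried them, how that tissue was separated from tumour, whether each array was a separate animal, or age, sex, feeding and time of day.

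AKT carries the insulin signal in hepatocytes, where it turns on lipid synthesis and shuts out FOXO1 from the nucleus. Beta-catenin is the transcriptional arm of Wnt signalling, which in liver holds the pericentral programme of glutamine synthesis and its own feedback genes such as *Axin2* and *Lgr5*. Around a growing tumour, liver tissue also holds infiltrating leukocytes, matrix-producing stellate cells and hepatocytes that respond to cytokines with acute phase proteins. DDC is a diet toxicant that blocks heme synthesis and injures bile ducts.

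Expression was read on single-colour bead arrays of 25697 probes, and values below are log2 of normalized intensity. Between 10990 and 11121 probes were detected per array of non-tumoral AKT-CAT liver, against 10969 to 11100 per array of PBS liver. Pearson's r over the 10765 genes tested was 0.965 to 0.975 among non-tumoral AKT-CAT arrays, 0.969 to 0.980 among PBS arrays and 0.947 to 0.963 between the groups. The 3 non-tumoral AKT-CAT arrays lay on slide 3 and the 3 PBS arrays on slide 1, so no slide held both groups. The values of a difference therefore hold any difference between the slides as well. Because nothing in the labels says that arrays of a group came from separate animals, p-values measure only the spread between these samples. The liver label was borne out by 20 hepatocyte plasma protein and identity genes, of which 1 was detected in no array of non-tumoral AKT-CAT liver and 0 in no array of PBS liver. Their summed level (log2 of the summed intensities) was 18.1 to 18.2 in non-tumoral AKT-CAT liver, against 18.0 in each array of PBS liver, and 1 of them passed the test below.

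In the limma fit of all 36 arrays, 1621 of 10765 genes (15.1%) differed between non-tumoral AKT-CAT and PBS liver at an adjusted p under 0.05. Of these, 796 were higher (7.39%) and 825 lower (7.66%), and the median difference over all genes was 0.01 on the log2 scale. The change exceeded 2-fold for 695 of the called genes and 4-fold for 69. Values of the 3 and 3 arrays did not overlap for 3072 genes (28.5%), of which 1419 were called. With each array scaled to its median in place of quantile normalization, the median of all genes moved to -0.23 and the calls to 133 higher and 1679 lower, so the calls of rises depend on the scaling. Unless another fit is named, SEs and adjusted p-values are from the fit of all 36 arrays, whose spread is pooled over 10 groups, tumours included. When the spread was estimated from the compared groups alone, 223 genes were called, and no list described below had more than 4 called members. Of 107 named genes called in the main fit, 29 kept their call there. Among those that lost it were *Cdc20*, *Plk1* and *Cdca2* (limma adjusted p = 0.0538 each), *Csad* (0.0558), *Serpina4-ps1* (0.096), *Usp2* (0.102), *Ntrk2* (0.133) and *Cyp7b1* (0.153). Leaving out PBS replicate 2 left 857 calls, PBS replicate 3 left 934 and non-tumoral AKT-CAT replicate 2 left 1028. With slide as a fixed term, which ties slides 1 and 3 together only through tumour groups, 0 genes were called by limma, 1031 had an unadjusted p under 0.05, and the lowest adjusted p was 0.0613.

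**Figure D1:**
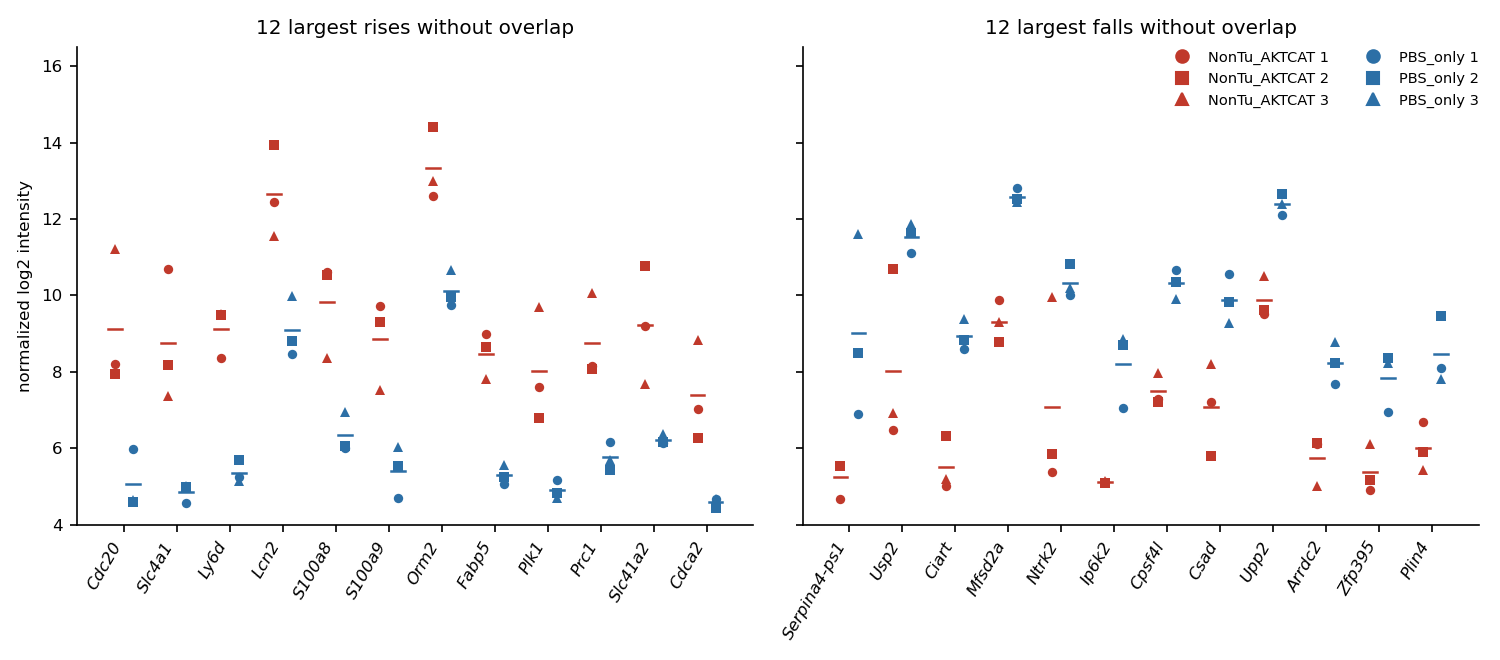
Log2 intensity in each array (points; non-tumoral AKT-CAT left, PBS right) for the 12 called genes with the largest rises and the 12 with the largest falls among those whose arrays did not overlap. *Cdc20* stood at 7.95 to 11.21 in non-tumoral AKT-CAT liver, against 4.58 to 5.98 in PBS liver, and *Ciart* at 5.02 to 6.32, against 8.59 to 9.39.

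Genes of mitosis were higher in non-tumoral AKT-CAT liver. Of 11 measured genes of the G2/M list, 8 rose and 0 fell, with a median difference of 1.77 on the log2 scale, against 0.01 over all genes. Of the list's members, 7 were not detected in any PBS array, and with the 5 whose rise could only be bounded set at that bound the median was 1.40. With median scaling 4 of 11 were called (median 1.15, with *Cdk1* and *Birc5* among those no longer called), and with only the compared groups in the fit 1 of 11. *Cdc20*, which activates the anaphase-promoting complex, read 8.20, 7.95 and 11.21 in non-tumoral AKT-CAT liver, against 5.98, 4.58 and 4.66 in PBS liver. The lowest non-tumoral AKT-CAT array lay above every PBS array, and the third non-tumoral AKT-CAT array was far above the other two. The difference was 4.05 ± 0.55 on the log2 scale (SE from the spread pooled over all groups, n = 3 each), with an adjusted p of 2.49e-05. With only the compared groups in the fit, the adjusted p of *Cdc20* was 0.0538. Its other kept probes gave 1.06, 2.98 and 3.01. *Cdc20* was detected in 1 of 3 PBS arrays, and the size of the difference is uncertain because levels under 5.40 to 5.45, the lowest detected levels of the 6 arrays, are not above background. The same holds for *Prc1*, *Birc5*, *Uhrf1*, *Mcm2* and *S100a9*, detected in 2 of 3 PBS arrays, and *Fabp5*, *Ly6d* and *Lgr5*, detected in 1 of 3. Among genes that fell, *Fasn*, *Etnppl*, *Ntrk2*, *Serpina4-ps1* and *Arrdc2* were detected in 2 of 3 non-tumoral AKT-CAT arrays, and *Ciart*, *Per3* and *Zfp395* in 1 of 3.

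*Plk1*, the kinase that drives mitotic entry and spindle assembly, read 7.60, 6.80 and 9.69 in non-tumoral AKT-CAT liver, against 5.18, 4.82 and 4.69 in PBS liver. It was not detected in PBS liver, so its rise was at least 6.05-fold (adjusted p = 0.000172). *Prc1*, which bundles microtubules of the central spindle, read 8.14, 8.08 and 10.07, against 6.17, 5.43 and 5.70 in PBS liver. Its arrays did not overlap, and the difference was 3.0 ± 0.46 (adjusted p = 8.98e-05). *Cdca2*, a partner of protein phosphatase 1 on mitotic chromosomes, was at least 3.86-fold higher (adjusted p = 0.000331), and *Aurka*, the centrosomal kinase, at least 3.26-fold higher (adjusted p = 0.00131). *Cdk1*, the mitotic cyclin-dependent kinase, was at least 2.63-fold higher (adjusted p = 0.00356), but its other kept probe gave a log2 difference of 0.09. *Top2a*, the topoisomerase that untangles chromosomes, was at least 2.42-fold higher (adjusted p = 0.00437), and the checkpoint kinase *Bub1b* at least 1.68-fold higher (adjusted p = 0.00874). *Gtse1*, expressed in G2 and a partner of p53, was at least 3.01-fold higher (adjusted p = 0.000427), but its other kept probe gave a log2 difference of 0.08. These 6 genes were higher in every non-tumoral AKT-CAT array than in any PBS array.

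*Birc5* (survivin) read 6.59, 7.22 and 10.003 in non-tumoral AKT-CAT liver, against 5.34, 6.08 and 6.63 in PBS liver, so its groups overlapped. Its difference of 1.92 ± 0.51 (adjusted p = 0.0117) fell to 0.88 without non-tumoral AKT-CAT replicate 3 (adjusted p = 0.148), and was 1.58 without PBS replicate 1 (adjusted p = 0.0572). The mean of the G2/M list was 6.37, 6.37 and 8.12 in the 3 non-tumoral AKT-CAT arrays, against 5.09, 5.10 and 5.12 in the PBS arrays. All 3 non-tumoral AKT-CAT arrays thus lay above PBS liver, with replicate 3 highest. Without that array, 6 of 11 members were called and the list's median was 1.20. The members that did not pass were *Ube2c*, a ubiquitin-conjugating enzyme not detected in either group, the transcription factor *Foxm1*, with a difference of 0.41, and the spindle protein *Tpx2*, with 0.62.

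In the same tissue, 5 of 19 G1/S genes rose and 0 fell (median 0.39, and 0.21 with 1 member at its bound). *Uhrf1*, which carries DNA methylation through replication, read 6.88, 8.78 and 8.66 in non-tumoral AKT-CAT liver, against 5.22, 5.75 and 6.72 in PBS liver. The groups did not overlap, though non-tumoral AKT-CAT replicate 1 was close to the highest PBS array, and the difference was 2.21 ± 0.53 (adjusted p = 0.00599). *Cdt1*, the replication licensing factor, differed by 1.76 ± 0.36 (adjusted p = 0.0017). *Mcm2*, a subunit of the replicative helicase, differed by 1.56 (adjusted p = 0.00755), and lost its call without PBS replicate 3 (1.04, adjusted p = 0.087) or without non-tumoral AKT-CAT replicate 2 (1.09, adjusted p = 0.0798). *Pcna*, the replication clamp (-0.45), and *Ccne1*, the cyclin of the G1/S transition (-0.25), did not pass the test. The list had 2 called members without PBS replicate 3 or non-tumoral AKT-CAT replicate 2, and 3 without PBS replicate 1 or non-tumoral AKT-CAT replicate 3. Its median was 0.78 without PBS replicate 1 and 0.88 without non-tumoral AKT-CAT replicate 1. With median scaling 3 members were called (median 0.14), and with only the compared groups 0.

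Promoters of the genes that carried the largest mitotic and clock changes are printed for the motifs by which these sets are usually described. The sequences are the 250 bases before the gene start from RefSeq (mouse build GRCm38.p6), written 5′ to 3′ on the gene's strand, with the motif in capitals. TTTGAA (searched on both strands, so also as TTCAAA) is the core of the cell cycle homology region, and CACGTG, the same on both strands, is the E-box bound by CLOCK and ARNTL. The *Cdc20* promoter lies at chr4:118437344-118437593 on the minus strand, *Ciart* at chr3:95882229-95882478 on the minus strand and *Per1* at chr11:69098699-69098948 on the plus strand.
Cdc20: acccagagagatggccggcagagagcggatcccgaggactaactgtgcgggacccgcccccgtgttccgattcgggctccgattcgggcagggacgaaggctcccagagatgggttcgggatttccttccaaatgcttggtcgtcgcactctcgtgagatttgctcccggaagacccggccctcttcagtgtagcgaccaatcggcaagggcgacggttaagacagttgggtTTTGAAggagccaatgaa
Ciart: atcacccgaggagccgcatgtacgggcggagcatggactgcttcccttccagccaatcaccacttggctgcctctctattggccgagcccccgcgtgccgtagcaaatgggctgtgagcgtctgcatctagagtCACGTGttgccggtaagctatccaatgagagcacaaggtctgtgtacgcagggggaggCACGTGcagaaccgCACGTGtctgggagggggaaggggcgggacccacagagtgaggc
Per1: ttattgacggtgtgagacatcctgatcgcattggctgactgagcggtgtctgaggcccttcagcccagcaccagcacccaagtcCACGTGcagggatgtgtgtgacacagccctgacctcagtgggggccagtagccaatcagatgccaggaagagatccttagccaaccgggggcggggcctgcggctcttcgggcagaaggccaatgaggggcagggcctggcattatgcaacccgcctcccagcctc
*Cdc20* held 1 TTTGAA, 18 bases before its start, *Ciart* held 3 CACGTG between 44 and 116 bases before its start, and *Per1* held 1, 166 bases before the start shown. A second annotated *Per1* start had 0 in its window. TTTGAA was present in 4 of the 8 called G2/M genes (*Top2a*, *Cdk1*, *Cdc20* and *Prc1*), against 18.3% of 27025 genes with a promoter in the table. CACGTG was present in 3 of the 7 called clock genes with a promoter there (*Per1*, *Tef* and *Ciart*), against 6.86% of 27025 genes. A match describes the letters of the window only.

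Of the circadian clock genes that passed the test, all but 1 were lower in non-tumoral AKT-CAT liver. Of 13 measured clock genes 7 fell (*Ciart*, *Per1*, *Per2*, *Per3*, *Cry2*, *Nr1d2* and *Tef*) and 1 rose (*Hlf*), with a median of -1.22 on the log2 scale. With the probes of each gene averaged 5 fell and the median was -0.54, and with only the compared groups in the fit 2 fell. *Ciart*, a repressor of CLOCK and ARNTL, read 5.02, 6.32 and 5.19 in non-tumoral AKT-CAT liver, against 8.59, 8.82 and 9.39 in PBS liver. No non-tumoral AKT-CAT array came near a PBS array, and the difference was -3.42 ± 0.53 (SE, n = 3 each, adjusted p = 0.000116), with -3.81 from its other probe. Replicates 1 and 3 of non-tumoral AKT-CAT liver were not above background, so the size of this fall is uncertain. *Per1*, a core repressor of the feedback loop, read 7.91, 9.20 and 5.95, against 9.64, 10.29 and 10.01 in PBS liver. Replicate 3 was the lowest of the non-tumoral AKT-CAT arrays, and the difference of -2.29 ± 0.52 (adjusted p = 0.00376) was -1.42 without it (adjusted p = 0.043).

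*Cry2*, the partner of the PER proteins, read 6.17, 6.78 and 6.79 in non-tumoral AKT-CAT liver, against 8.12, 8.08 and 7.93 in PBS liver. Its groups were well apart, at -1.47 ± 0.29 (adjusted p = 0.00115). *Per2* read 8.37, 10.42 and 7.27 in non-tumoral AKT-CAT liver, against 10.62, 10.45 and 10.69 in PBS liver. Non-tumoral AKT-CAT replicate 2 was just below PBS liver, and the difference of -1.90 ± 0.50 (adjusted p = 0.0105) was -1.19 without replicate 3 (adjusted p = 0.102). The highest-mean probe of *Per2* gave this fall, while its other kept probes gave 0.18 and -2.48. *Per3* differed by -1.53 (adjusted p = 0.0187) and lost its call without PBS replicate 2 (-1.54, adjusted p = 0.0548), non-tumoral AKT-CAT replicate 1 (-1.19, adjusted p = 0.109) or replicate 3 (-1.25, adjusted p = 0.0866). *Tef*, a PAR bZIP output factor, differed by -1.22 (adjusted p = 0.0238), with 0.13 from its other probe. It lost its call in 4 of the 6 fits that left out 1 array: without PBS replicate 2 (-1.22, adjusted p = 0.0668), PBS replicate 3 (-1.12, 0.084), non-tumoral AKT-CAT replicate 1 (-1.07, 0.0931) or replicate 3 (-1.02, 0.0944).

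*Nr1d2*, which encodes the repressor REV-ERB beta, read 7.94, 7.45 and 8.09 in non-tumoral AKT-CAT liver, against 8.66, 9.35 and 8.97 in PBS liver. Its groups did not overlap (-1.17 ± 0.39, adjusted p = 0.0396), and its call was lost without PBS replicate 2 (-0.99, adjusted p = 0.157) or 3 (-1.18, 0.0878), or non-tumoral AKT-CAT replicate 1 (-1.22, 0.0699) or 2 (-0.98, 0.152). *Hlf*, a PAR bZIP factor, was detected in 1 of 3 non-tumoral AKT-CAT arrays and 0 of 3 PBS arrays (adjusted p = 0.0249). Its call was lost without PBS replicate 1 (adjusted p = 0.0539), 2 (0.064) or 3 (0.0645), or non-tumoral AKT-CAT replicate 2 (0.284).

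The activators *Arntl* and *Clock* did not pass the test: *Arntl* read 7.33, 5.17 and 7.45 in non-tumoral AKT-CAT liver, against 6.57, 4.62 and 4.66 in PBS liver (1.37, adjusted p = 0.226), and *Clock* differed by 0.89 (adjusted p = 0.0596). *Dbp*, an output factor of the PAR bZIP family, read 10.59, 10.92 and 10.95 in non-tumoral AKT-CAT liver, against 11.36, 12.67 and 12.50 in PBS liver. Its arrays did not overlap, yet the difference of -1.36 ± 0.85 had an adjusted p of 0.299. The repressors *Nr1d1*, which encodes REV-ERB alpha, and *Nfil3*, which acts on PAR bZIP targets, differed by 0.37 and by less than 0.01 and did not pass. Between 4 and 7 clock genes were called lower when 1 array was left out, with 4 without PBS replicate 2 and without non-tumoral AKT-CAT replicates 1 or 3. The labels give no time of death, and its part in these differences was not tested.

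**Figure D2:**
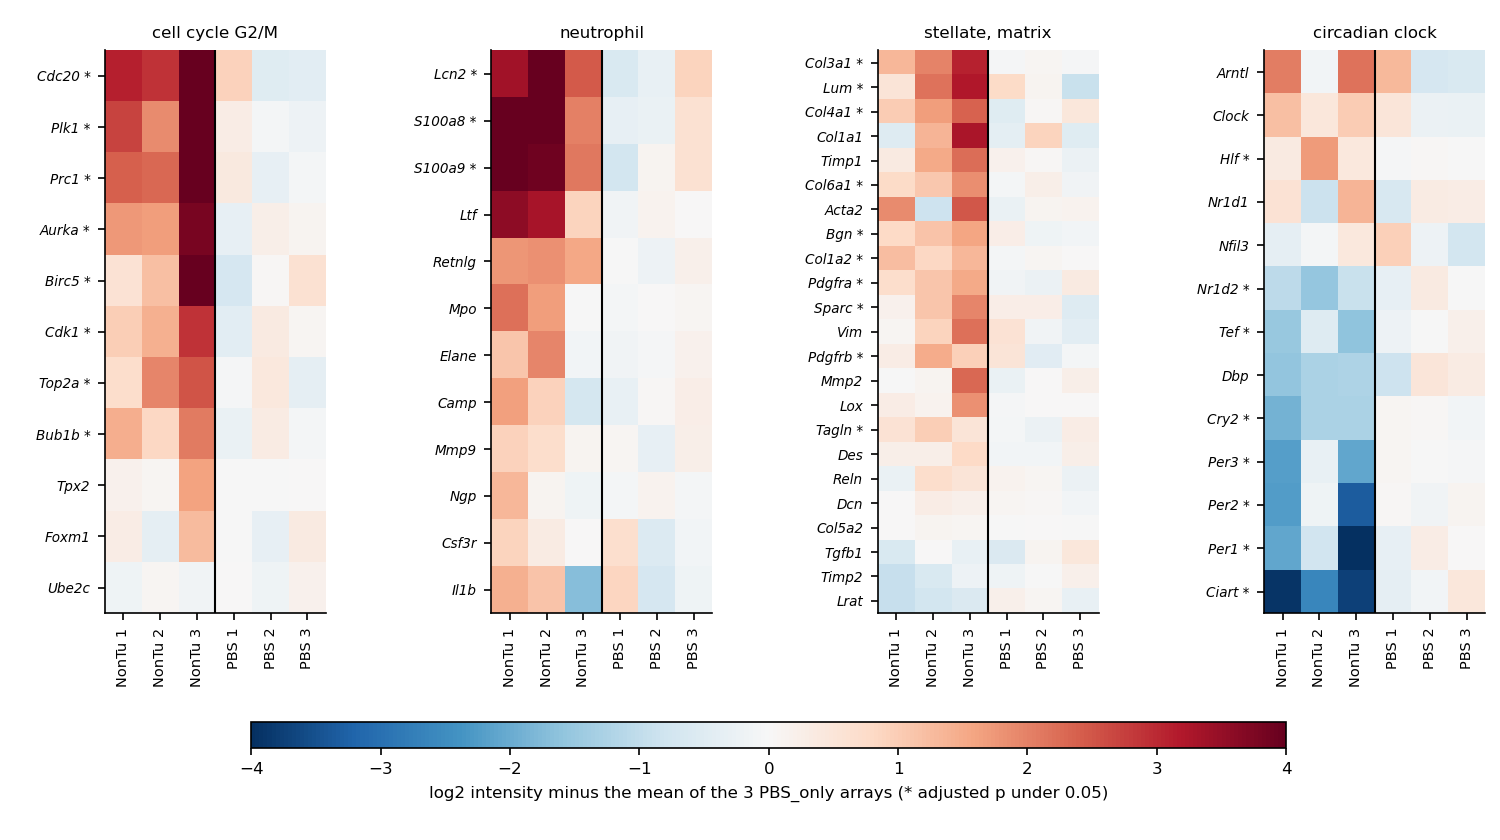
Log2 intensity minus the mean of the 3 PBS arrays for the measured genes of the main gene groups, with the 3 non-tumoral AKT-CAT arrays left of the line and the 3 PBS arrays right of it; colours stop at ±4 and an asterisk marks an adjusted p under 0.05. The called G2/M genes lie above the PBS mean in all 3 non-tumoral AKT-CAT arrays, and the list's mean is highest in replicate 3. Of these genes *Birc5* overlapped PBS liver, while *Ube2c*, *Foxm1* and *Tpx2* of the list did not pass. *Ciart*, *Per1* and *Cry2* are low in all 3 non-tumoral AKT-CAT arrays.

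*Usp2* and *Mfsd2a* were among the 12 largest falls without overlap. *Usp2*, a ubiquitin protease whose liver transcript cycles over the day, read 6.49, 10.68 and 6.93 in non-tumoral AKT-CAT liver, against 11.11, 11.62 and 11.86 in PBS liver. Replicate 2 lay just under PBS liver and the others far below. The difference of -3.50 ± 0.70 (adjusted p = 0.00121) was -2.26 with the probes of the gene averaged. With only the compared groups in the fit the call of *Usp2* was lost (adjusted p = 0.102). *Mfsd2a*, a lysophospholipid transporter induced in fasted liver, read 9.87, 8.78 and 9.30, against 12.81, 12.52 and 12.43 in PBS liver. All 3 non-tumoral AKT-CAT arrays were well below PBS liver (-3.27 ± 0.65, adjusted p = 0.00121). The fall of *Klf15* was smaller. *Klf15*, a fasting-responsive regulator of amino acid and glucose metabolism, read 5.92, 6.62 and 6.44, against 7.58, 7.50 and 7.45 in PBS liver. The groups did not overlap (-1.19 ± 0.29, adjusted p = 0.00638).

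*Foxo1*, the transcription factor that AKT holds out of the nucleus, differed by -0.95 (adjusted p = 0.0392). It kept its call only without non-tumoral AKT-CAT replicate 2, and fits without the other arrays gave -0.93 (PBS replicate 1, adjusted p = 0.0768), -0.85 (PBS replicate 2, 0.135), -1.07 (PBS replicate 3, 0.0542), -0.76 (non-tumoral AKT-CAT replicate 1, 0.163) and -0.92 (replicate 3, 0.0854). *Angptl8*, an insulin-induced secreted inhibitor of lipoprotein lipase, went the other way, with 12.99, 11.18 and 10.51 in non-tumoral AKT-CAT liver, against 8.88, 8.53 and 9.69 in PBS liver. The groups did not overlap, and the rise of 2.53 ± 0.68 (adjusted p = 0.0123) lost its call without PBS replicate 2 (2.27, adjusted p = 0.0648) or non-tumoral AKT-CAT replicate 1 (1.81, adjusted p = 0.102). *Klf15*, *Foxo1* and *Angptl8* were the called members of the 17 measured of the insulin, AKT and FOXO1 list (1 higher, 2 lower, median -0.27). That is 17.6% called, against 15.1% of all genes. The list's median was -0.11 without PBS replicate 1, -0.09 without non-tumoral AKT-CAT replicate 2 and -0.44 without replicate 3. *Igfbp1*, *Pck1* and *G6pc*, FOXO1 targets that insulin represses, differed by -0.85, -1.15 and -0.27 and did not pass.

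Of 20 genes of fatty acid synthesis 0 rose and 5 fell, with a median of -0.51. The count was 1 without PBS replicate 3 or non-tumoral AKT-CAT replicate 1, 2 without PBS replicate 2 and 3 without non-tumoral AKT-CAT replicate 2. The median was -0.33, -0.19 and -0.79 without non-tumoral AKT-CAT replicates 1, 2 and 3, taken in that order, and -1.12 with median scaling, where 7 were called. *Thrsp* (Spot 14), a lipogenic cofactor, read 11.30, 12.59 and 11.95 in non-tumoral AKT-CAT liver, against 13.34, 13.18 and 13.47 in PBS liver. Every non-tumoral AKT-CAT array was below PBS liver, by -1.38 ± 0.38 (adjusted p = 0.013), and the call was lost without PBS replicate 3 (-1.31, adjusted p = 0.0509) or non-tumoral AKT-CAT replicate 1 (-1.06, adjusted p = 0.0913). *Lpin1*, the phosphatidate phosphatase, differed by -1.64 (adjusted p = 0.0248), with -1.23 without PBS replicate 1 (adjusted p = 0.124) and -1.24 without non-tumoral AKT-CAT replicate 2 (adjusted p = 0.148).

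*Fasn*, the fatty acid synthase, read 5.76, 4.72 and 7.38 in non-tumoral AKT-CAT liver, against 7.03, 7.10 and 7.62 in PBS liver. Replicate 3 lay within the PBS range and replicate 2 far below it. The difference of -1.30 ± 0.42 (adjusted p = 0.035) was -0.68 without replicate 2 (adjusted p = 0.307), -2.01 without replicate 3 (adjusted p = 0.000939) and 0.38 with slide as a fixed term. It also lost its call without non-tumoral AKT-CAT replicate 1 (-1.20, adjusted p = 0.101), PBS replicate 2 (-1.37, 0.0713) or PBS replicate 3 (-1.11, 0.136). *Scd1*, the stearoyl-CoA desaturase (-0.62), *Acly*, ATP citrate lyase (-0.48), and *Acaca*, acetyl-CoA carboxylase (-0.24), did not pass. Among 17 lipid droplet genes 2 fell, which is 11.8% called, against 15.1% of all genes called in either direction and 7.66% called lower. The larger fall was that of *Plin4*, a droplet coat protein. *Plin4* read 6.68, 5.89 and 5.42 in non-tumoral AKT-CAT liver, against 8.09, 9.47 and 7.80 in PBS liver, without overlap (-2.46 ± 0.57, adjusted p = 0.00427), and -0.77 with slide as a fixed term.

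Other large falls came from genes of separate functions. *Serpina4-ps1*, a serpin pseudogene whose probe may also read related family members, read 4.68, 5.52 and 5.54 in non-tumoral AKT-CAT liver, against 6.89, 8.50 and 11.62 in PBS liver. PBS replicate 3 was far above the other PBS arrays, and the difference of -3.76 ± 0.66 (adjusted p = 0.000354) was -2.45 without it (adjusted p = 0.00412). With only the compared groups in the fit the call was lost (adjusted p = 0.096). *Csad*, the decarboxylase of taurine synthesis, read 7.22, 5.80 and 8.20, against 10.55, 9.81 and 9.27 in PBS liver. Its groups did not overlap (-2.80 ± 0.42, adjusted p = 7.2e-05), and its adjusted p was 0.0558 with only the compared groups in the fit. *Ntrk2*, the receptor for brain-derived neurotrophic factor, read 5.39, 5.85 and 9.96 in non-tumoral AKT-CAT liver, against 9.9997, 10.81 and 10.20 in PBS liver. Only the third non-tumoral AKT-CAT array was near PBS liver (-3.27 ± 0.69, adjusted p = 0.00194). The call of *Ntrk2* was lost with only the compared groups in the fit (adjusted p = 0.133). *Ip6k2*, an inositol hexakisphosphate kinase, was detected in 3 of 3 PBS arrays and in 0 of 3 non-tumoral AKT-CAT arrays, and was at least 6.84-fold lower (adjusted p = 0.00103).

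*Arrdc2*, of the arrestin-domain family, fell by 2.48 on the log2 scale (SE 0.31, adjusted p = 1.04e-05), *Cpsf4l* by 2.82 (SE 0.49, adjusted p = 0.000321) and the zinc finger gene *Zfp395* by 2.46 (SE 0.49, adjusted p = 0.00111). *Upp2*, a uridine phosphorylase, differed by -2.50 ± 0.77 (adjusted p = 0.0263). Its call was lost without PBS replicate 2 (-2.37, adjusted p = 0.09) or 3 (-2.50, 0.0679), or non-tumoral AKT-CAT replicate 1 (-2.32, 0.0834) or 2 (-2.38, 0.081). Among bile acid genes 2 of 15 fell, which is 13.3% called, against 15.1% of all genes called in either direction and 7.66% called lower. *Abcc3*, an efflux pump of the basolateral membrane, read 10.15, 10.03 and 10.26, against 11.32, 11.26 and 11.06 in PBS liver (-1.06 ± 0.21, adjusted p = 0.00103). *Cyp7b1*, the oxysterol hydroxylase of the alternative bile acid pathway, read 10.66, 9.70 and 9.58, against 10.49, 11.35 and 12.57, with overlap. Its difference of -1.49 ± 0.33 (adjusted p = 0.00303) was -0.94 without PBS replicate 3 (adjusted p = 0.0462). With only the compared groups in the fit the call was lost (adjusted p = 0.153).

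Genes of neutrophil calprotectin and some genes of the acute phase were higher in non-tumoral AKT-CAT liver. Of 12 neutrophil genes 3 rose and 0 fell: *S100a8*, *S100a9* and *Lcn2*. The list's median was 1.14 (0.60 with 4 members at their bound, 0.67 with median scaling), and its summed level was 11.9 to 14.2, against 9.77 to 10.6 in PBS liver. *S100a8*, one chain of the metal-binding calprotectin dimer, read 10.61, 10.53 and 8.37 in non-tumoral AKT-CAT liver, against 6.01, 6.06 and 6.96 in PBS liver. *S100a9*, its other chain, read 9.73, 9.30 and 7.53, against 4.69, 5.53 and 6.02 in PBS liver. For both chains replicate 3 was the lowest non-tumoral AKT-CAT array and still above all PBS arrays. The differences were 3.49 ± 0.69 (adjusted p = 0.00107) for *S100a8* and 3.44 ± 0.73 (adjusted p = 0.00219) for *S100a9*.

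*Lcn2*, an iron-scavenging lipocalin made by neutrophils and by stressed hepatocytes, read 12.45, 13.93 and 11.55 in non-tumoral AKT-CAT liver, against 8.46, 8.80 and 9.99 in PBS liver. The groups did not overlap (3.56 ± 0.55, adjusted p = 0.000116). The granule genes *Mpo* and *Ltf* did not pass the test: *Mpo*, myeloperoxidase, read 6.69, 6.16 and 4.47, against 4.40, 4.50 and 4.55 in PBS liver (adjusted p = 0.282), and *Ltf*, lactoferrin, read 8.31, 8.02 and 5.61, against 4.58, 4.88 and 4.74 (adjusted p = 0.148). In replicates 1 and 2 both stood above PBS liver, and in replicate 3 *Mpo* was at the level of PBS liver. *Ngp*, *Ltf*, *Elane*, *Mpo* and *Retnlg*, the defining granule and neutrophil genes of the list, were not detected in any PBS array, and each was detected in at least 1 non-tumoral AKT-CAT array. In these bulk samples more cells of a type and more RNA per cell cannot be told apart.

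Of 21 acute phase genes 4 rose and 0 fell, with a median of 0.42. With median scaling 3 rose (median 0.22), and with only the compared groups 2. *Orm2*, an orosomucoid whose probe may also read its close relatives, read 12.59, 14.40 and 12.99 in non-tumoral AKT-CAT liver, against 9.76, 9.94 and 10.66 in PBS liver. Every array of non-tumoral AKT-CAT liver was above PBS liver (3.21 ± 0.53, adjusted p = 0.000218). *Saa1*, serum amyloid A, read 7.76, 10.84 and 7.54, against 6.61, 6.10 and 6.03 in PBS liver. Replicate 2 was far above the others, and the difference of 2.47 ± 0.62 (adjusted p = 0.00827) was 1.41 without it (adjusted p = 0.11). *Apcs*, serum amyloid P, differed by 1.40 (adjusted p = 0.00904), and by 1.0 without the same array (adjusted p = 0.087). Without replicate 2, 2 genes of the list rose and 1 fell, with a median of 0.26. *Socs3*, the feedback inhibitor of IL-6 and growth hormone signalling, read 9.67, 9.56 and 8.27, against 8.19, 5.95 and 6.62 in PBS liver. Replicate 3 only just exceeded the highest PBS array, and the rise of 2.25 ± 0.58 (adjusted p = 0.00885) was 1.76 without PBS replicate 2 (adjusted p = 0.0767). Its value was 0.55 with slide as a fixed term.

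Several matrix genes rose. Of 23 stellate cell, fibroblast and matrix genes 10 rose and 0 fell, with a median of 1.06 (0.80 with 4 members at their bound). The median was 0.54 without non-tumoral AKT-CAT replicate 3 and 0.58 with median scaling, and with only the compared groups 2 of 23 were called. The list's mean per array was 7.65, 8.08 and 8.79 in non-tumoral AKT-CAT liver, against 7.36, 7.38 and 7.30 in PBS liver. Replicate 3 was the highest and replicate 1 the closest to PBS liver. *Col4a1*, a chain of basement membrane collagen, read 9.74, 10.42 and 11.10, against 8.26, 8.77 and 9.18 in PBS liver. Its groups did not overlap (1.68 ± 0.29, adjusted p = 0.000305). *Bgn*, the small proteoglycan biglycan, read 12.77, 13.14 and 13.58, against 12.26, 11.82 and 11.88 in PBS liver, again without overlap (1.18 ± 0.26, adjusted p = 0.00285).

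*Col3a1*, a fibrillar collagen chain, was not detected in PBS liver and was at least 2.47-fold higher (adjusted p = 0.00108), with -0.19 from its other kept probe. *Col1a2*, a chain of collagen I, was at least 1.17-fold higher (adjusted p = 0.00827). *Col6a1*, a chain of microfibrillar collagen, differed by 1.23 ± 0.33 (adjusted p = 0.011) and by 0.92 without non-tumoral AKT-CAT replicate 3 (adjusted p = 0.0766). *Lum*, the collagen-binding proteoglycan lumican, read 7.26, 8.92 and 9.94 in non-tumoral AKT-CAT liver, against 7.50, 6.86 and 5.85 in PBS liver, so that the groups overlapped. Its difference of 1.97 ± 0.58 (adjusted p = 0.0204) lost its call without PBS replicate 2 (2.03, adjusted p = 0.0518) or 3 (1.53, 0.126), or non-tumoral AKT-CAT replicate 2 (1.86, 0.0681) or 3 (1.35, 0.138). Stellate activation genes did not pass: *Acta2*, smooth muscle actin, read 9.76, 7.05 and 10.35, against 7.61, 7.98 and 8.02 in PBS liver (adjusted p = 0.153), and *Timp1*, an inhibitor of matrix proteases, differed by 1.37 (adjusted p = 0.0584). The called members numbered 5 without PBS replicate 2 or without non-tumoral AKT-CAT replicate 3 and 6 without non-tumoral AKT-CAT replicate 2, and with median scaling 3 were higher and 1 lower.

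**Figure D3:**
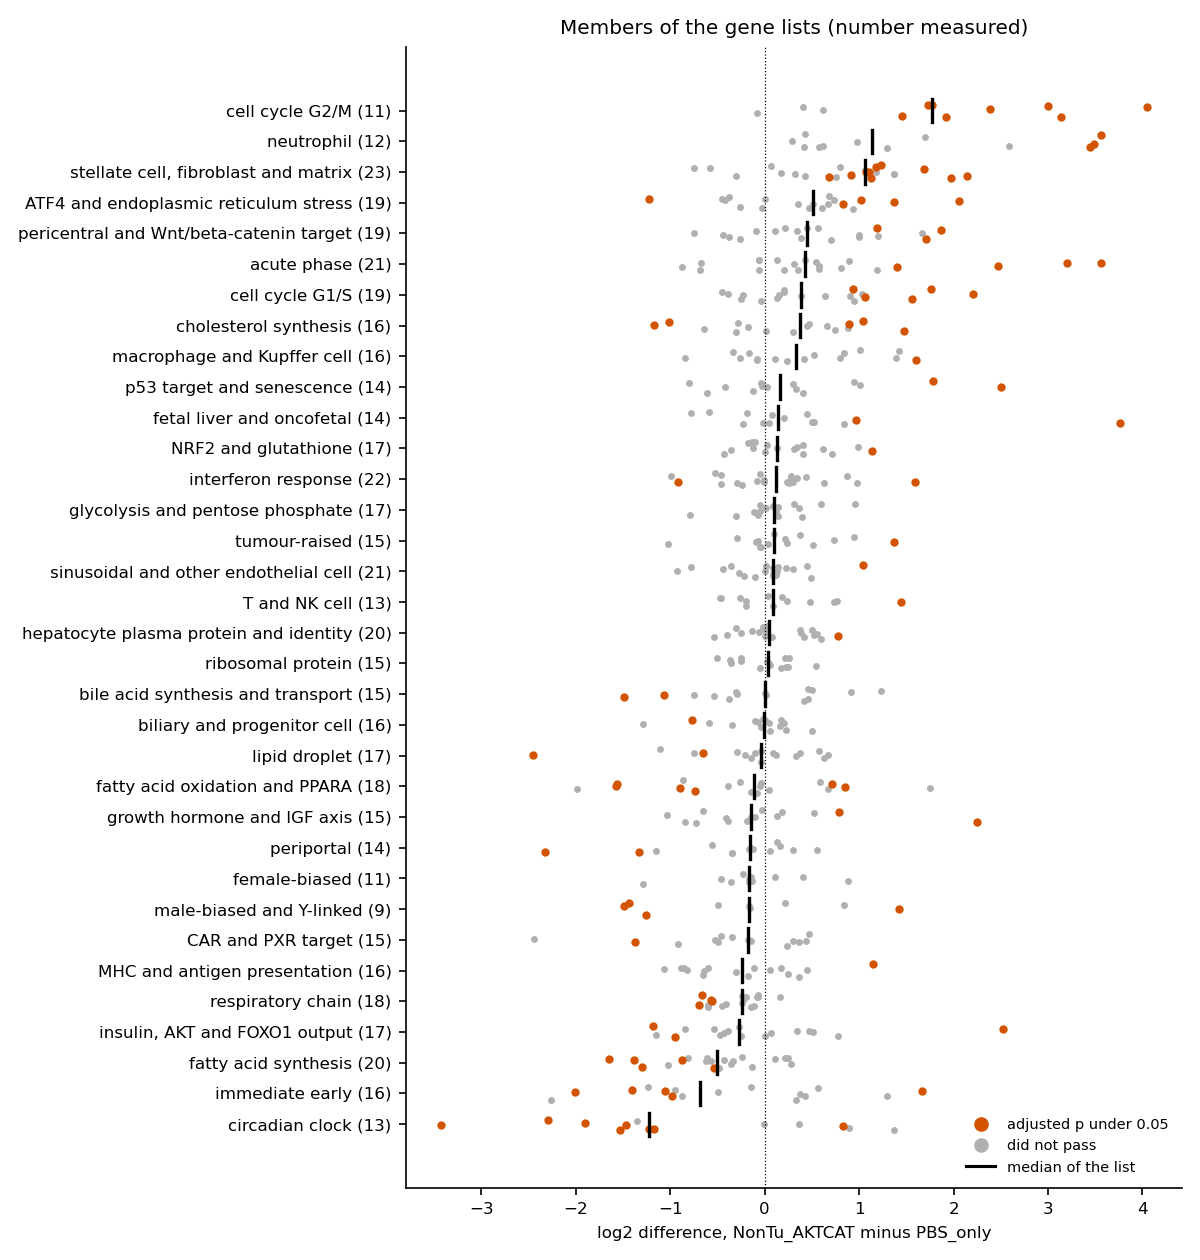
Log2 difference, non-tumoral AKT-CAT minus PBS liver, of each measured gene of the lists with at least 9 measured genes; orange points passed an adjusted p of 0.05, grey points did not, and the black bar is the list's median. The G2/M list stands highest at 1.77 and the circadian clock list lowest at -1.22, against 0.01 over all genes; with probes averaged the clock list is at -0.54 and the immediate early list lower, at -0.69. The cholesterol synthesis list, at 0.38, is at -0.24 with median scaling.

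Among targets of Wnt and beta-catenin few passed the test. Of 19 pericentral and Wnt target genes 3 rose and 0 fell, which is 15.8% called, against 15.1% of all genes called in either direction and 7.39% called higher. The median was 0.45 (0.14 with median scaling, where 2 rose and 1 fell, and 0.73 without non-tumoral AKT-CAT replicate 3). *Tbx3*, a T-box repressor and target of beta-catenin in liver tumours, read 11.31, 10.54 and 9.95 in non-tumoral AKT-CAT liver, against 8.43, 8.97 and 9.27 in PBS liver. All non-tumoral AKT-CAT arrays were above PBS liver (1.71 ± 0.32, adjusted p = 0.000667). *Avpr1a*, the vasopressin receptor of pericentral hepatocytes, read 11.97, 11.73 and 11.35, against 9.84, 9.62 and 9.99 in PBS liver. These groups were also apart (1.87 ± 0.44, adjusted p = 0.00499), but with slide as a fixed term the value was -0.10.

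*Lgr5*, the R-spondin receptor, read 7.10, 5.93 and 6.24, against 5.02, 5.46 and 5.22 in PBS liver. The groups did not overlap, and the rise of 1.19 ± 0.36 (adjusted p = 0.0243) lost its call without PBS replicate 1 (1.08, adjusted p = 0.0698) or 3 (1.18, 0.0652) or non-tumoral AKT-CAT replicate 1 (0.85, 0.157). *Axin2*, the feedback inhibitor of Wnt signalling, read 8.67, 7.86 and 7.99, against 6.83, 7.04 and 7.67 in PBS liver, and its difference of 1.0 had an adjusted p of 0.0627. *Glul*, the pericentral glutamine synthetase, read 7.26, 6.05 and 5.63, against 5.20, 6.15 and 6.56 in PBS liver. Its groups overlapped (0.34 ± 0.54, adjusted p = 0.732). *Cyp2e1*, a pericentral cytochrome P450, differed by -0.09.

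Of 14 periportal genes 14.3% were called, against 15.1% of all genes called in either direction and 7.66% called lower. The 2 that fell were *Etnppl*, the ethanolamine phosphate lyase, and *Ass1*, the urea cycle enzyme argininosuccinate synthase. Both calls were absent without PBS replicate 2 or 3 or non-tumoral AKT-CAT replicate 2. *Etnppl* read 7.24, 4.72 and 8.0 in non-tumoral AKT-CAT liver, against 8.88, 8.70 and 9.36 in PBS liver. Its groups did not overlap, with replicate 2 lowest by far (-2.33 ± 0.74, adjusted p = 0.031). The fall was -1.36 without that array (adjusted p = 0.254), and the call was also lost without PBS replicate 1 (-2.38, adjusted p = 0.0531), 2 (-2.47, 0.0651) or 3 (-2.14, 0.102). *Ass1* read 12.71, 12.44 and 14.24 in non-tumoral AKT-CAT liver, against 13.95, 14.43 and 14.98 in PBS liver, with replicate 3 inside the PBS range. Its difference of -1.33 (adjusted p = 0.026) lost its call without PBS replicate 2 (-1.34, adjusted p = 0.0689) or 3 (-1.06, 0.135), or non-tumoral AKT-CAT replicate 1 (-1.11, 0.111) or 2 (-0.98, 0.157). The driver genes' own probes were no check of the label. *Akt1* was detected in 0 of the 6 arrays, and *Ctnnb1*, the gene of beta-catenin, differed by 0.55 ± 0.20 (adjusted p = 0.0521). Whether these probes read the delivered drivers was not tested.

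The remaining large rises, also picked among genes without overlap, were in genes of mixed function. *Fabp5*, a fatty acid-binding protein of skin and macrophages, read 8.98, 8.64 and 7.81 in non-tumoral AKT-CAT liver, against 5.07, 5.24 and 5.57 in PBS liver. All non-tumoral AKT-CAT arrays were far above PBS liver (3.19 ± 0.34, adjusted p = 1.12e-06). *Ly6d*, a surface antigen of B cell progenitors and squamous epithelium, read 8.37, 9.49 and 9.50, against 5.25, 5.70 and 5.13 in PBS liver. It too was clear of every PBS array (3.76 ± 0.54, adjusted p = 4.4e-05). *Slc41a2*, a magnesium transporter, read 9.20, 10.78 and 7.68, against 6.13, 6.16 and 6.38 (3.0 ± 0.46, adjusted p = 9.29e-05).

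*Slc4a1*, the anion exchanger band 3 of red cells, read 10.69, 8.17 and 7.36 in non-tumoral AKT-CAT liver, against 4.57, 4.99 and 5.0 in PBS liver. It was not detected in PBS liver and was at least 9.91-fold higher (adjusted p = 0.000552). Of 6 erythroid genes 2 rose (*Slc4a1* and *Car2*) and 1 fell (*Klf1*), 5 lay above 0 and the median was 0.87, with 0.43 without non-tumoral AKT-CAT replicate 1, 1.37 without replicate 3 and 0.50 without PBS replicate 1. *Car2*, a carbonic anhydrase, read 7.76, 7.78 and 6.77 in non-tumoral AKT-CAT liver, against 6.72, 6.08 and 5.61 in PBS liver. The groups did not overlap, but replicate 3 was close to the highest PBS array (1.31 ± 0.45, adjusted p = 0.0478). Its call was lost without PBS replicate 2 (1.28, adjusted p = 0.121) or 3 (1.04, 0.197), or non-tumoral AKT-CAT replicate 1 (1.14, 0.15) or 2 (1.13, 0.157). *Hba-a1*, alpha globin, whose probe may also read its near-identical copy, read 14.73, 14.04 and 13.08, against 12.55, 13.86 and 13.12 in PBS liver. *Alas2*, the erythroid aminolevulinate synthase of heme synthesis, read 9.77, 8.88 and 7.65, against 6.91, 8.74 and 7.71. Both overlapped between the groups (adjusted p of 0.466 and 0.24), with replicate 1 of non-tumoral AKT-CAT liver the highest array for each. *Klf1*, the erythroid transcription factor, differed by -0.97 (adjusted p = 0.0187), and lost its call without PBS replicate 2 (-0.95, adjusted p = 0.0599) or 3 (-0.89, 0.0733) or non-tumoral AKT-CAT replicate 2 (-0.84, 0.0866). The summed level of the 6 erythroid genes was 13.2 to 14.9 in non-tumoral AKT-CAT liver, against 12.7 to 14.0 in PBS liver. The part of blood in the *Slc4a1* result was not tested.

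Stress-response genes moved in both directions. Of 19 genes of ATF4 and the endoplasmic reticulum stress response 4 rose and 1 fell. *Xbp1*, the transcription factor of the secretory pathway, read 13.22, 13.80 and 12.64 in non-tumoral AKT-CAT liver, against 12.47, 11.94 and 12.20 in PBS liver. *Herpud1*, a component of the degradation machinery of the reticulum, read 13.21, 13.74 and 12.66, against 14.56, 14.41 and 14.31 in PBS liver. Neither overlapped: *Xbp1* was higher by 1.02 ± 0.23 (adjusted p = 0.00416) and *Herpud1* differed by -1.22 ± 0.30 (adjusted p = 0.00736). *Psat1*, the serine synthesis aminotransferase and an ATF4 target, read 5.29, 9.07 and 6.45, against 5.19, 4.50 and 4.96 in PBS liver. Replicate 2 was far above the rest. The rise was at least 2.84-fold (adjusted p = 0.0066), with a log2 difference of 0.99 without that array (adjusted p = 0.0894). The list had 1 rise without that array, 2 without PBS replicate 2 or 3, and 6 without non-tumoral AKT-CAT replicate 3. With median scaling 1 rose and 2 fell.

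Of 16 immediate early genes 4 fell and 1 rose, with a median of -0.69 (-0.36 with 1 member at its bound). Without PBS replicate 2 the falls numbered 2, and the median was -0.03 without PBS replicate 1 and -0.24 without non-tumoral AKT-CAT replicate 3. *Gadd45g*, a stress-induced growth arrest gene, read 11.06, 10.97 and 9.85 in non-tumoral AKT-CAT liver, against 12.70, 12.54 and 12.67 in PBS liver. It lay below PBS liver in all 3 arrays (-2.01 ± 0.50, adjusted p = 0.00755). *Rhob*, a stress-induced small GTPase, differed by -1.40 ± 0.28 (adjusted p = 0.00121), also without overlap. *Egr1*, the serum-response transcription factor, went up by 1.67 (adjusted p = 0.0243) with overlapping groups, and lost its call without PBS replicate 2 (1.44, adjusted p = 0.112) or 3 (1.18, 0.169) or non-tumoral AKT-CAT replicate 1 (1.44, 0.0984). *Gstm2*, a glutathione transferase, read 13.37, 13.30 and 13.70, against 12.28, 12.52 and 12.16 in PBS liver. The groups were apart (1.14 ± 0.21, adjusted p = 0.000464), and *Gstm2* was the called member of 17 NRF2 and glutathione genes, at 0.66 with median scaling (adjusted p = 0.0813).

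Markers of other cell types moved little beside the neutrophil and matrix lists. Of 21 endothelial genes 1 rose, with a summed level of 14.0 to 14.1, against 13.8 to 14.0 in PBS liver. Of 16 biliary and progenitor genes 0 rose and 1 fell, and *Krt19*, *Sox9*, *Cldn4*, *Cftr*, *Mmp7* and *Cd24a* were detected in none of the 6 arrays. Of 16 macrophage and Kupffer cell genes *Lyz2* (lysozyme) alone was called, at 9.19, 8.96 and 10.001, against 7.84, 7.82 and 7.69 in PBS liver. That list's summed level was 13.5 to 13.8, against 12.9 to 13.3, without overlap, and the *Lyz2* difference of 1.60 (adjusted p = 0.00238) was 0.25 with slide as a fixed term. Of 6 B cell genes 1 was called, *Ly6d*, and of 13 T and NK cell genes 1, *Cd8b1*. *Cd8b1*, a chain of the CD8 coreceptor detected in 1 of 3 PBS arrays, differed by 1.45 (adjusted p = 0.0483). It kept its call without non-tumoral AKT-CAT replicate 3 and lost it without PBS replicate 1 (1.25, adjusted p = 0.135), 2 (1.40, 0.126) or 3 (1.69, 0.0542), or non-tumoral AKT-CAT replicate 1 (1.49, 0.0894) or 2 (1.10, 0.212). Neither pancreas acinar (0 of 6) nor fat tissue genes (0 of 4) were called. Their part in the results above was not tested.

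Genes chosen as high in tumours of this study were mostly undetected in the non-tumoral tissue. Choosing them in these same data can favour low levels outside tumours, so their levels are no separate result. With DDC on both sides, 6 were called higher and 2 lower (median 1.22). Of 15 measured, 1 was called, 9 were detected in no non-tumoral AKT-CAT array and 11 in no PBS array. Their summed level was 8.87 to 9.38, against 8.83 to 8.92 in PBS liver. The called member was *Asns*, asparagine synthetase, which was not detected in PBS liver and was at least 1.48-fold higher (adjusted p = 0.034). Its log2 difference of 1.37 was 0.85 without non-tumoral AKT-CAT replicate 2 (adjusted p = 0.245), and the call was also lost without PBS replicate 1 (1.41, adjusted p = 0.0561), 2 (1.35, 0.093) or 3 (1.36, 0.0831).

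Among housekeeping lists, 0 of 15 ribosomal protein genes and 0 of 17 glycolysis genes were called, and 4 of 18 respiratory chain genes fell (median -0.24). With median scaling, which moves the median of all genes to -0.23, 5 ribosomal protein genes (median -0.44), 2 glycolysis genes and 11 respiratory chain genes (median -0.80) were called lower. With quantile normalization the respiratory chain count was 0 without PBS replicate 2, 2 without PBS replicate 1, 1 without PBS replicate 3 or non-tumoral AKT-CAT replicates 1 or 2, and 7 without non-tumoral AKT-CAT replicate 3. *Uty*, Y-linked, was detected in 3 of 3 PBS arrays and 0 of 3 non-tumoral AKT-CAT arrays, at least 1.45-fold lower (adjusted p = 0.000647). *Xist*, transcribed from the inactive X, read 9.44, 8.42 and 8.62, against 8.67, 9.18 and 9.31 in PBS liver, with overlap (adjusted p = 0.701). The probes of *Eif2s3y* and *Kdm5d*, also Y-linked, were detected in 0 arrays of either group. Across the study *Uty* was detected in 24 of 36 arrays and both *Xist* probes in all 36. The sex of the animals is not in the labels, and its part was not tested.

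The slides of the compared groups differ, and a fit with slide as a fixed term set the values beside this. In it the median SE of the difference was 0.540, against 0.256 without the term. Of the 1621 called genes, 1580 (97.5%) kept their sign, against 8159 (75.8%) of all genes, and 560 (34.5%) had an unadjusted p under 0.05 with the same sign. Genes called for a large difference in the same arrays tend to keep its sign, so these counts are no check of the slides. Slide 3 was tied to the others only through replicate 4 of AKT-CAT tumours without a toxicant. Differences grew for *Cdc20* (5.37), *Plk1* (4.14) and *Ciart* (-4.76), and shrank for *Orm2* (2.24), *Lcn2* (2.86) and *S100a8* (3.0). List medians were 2.45 for G2/M, -1.73 for the clock, 0.83 for neutrophil and 0.58 for matrix genes. Medians turned negative for the acute phase (-0.07), macrophage (-0.16), erythroid (-0.15), T and NK cell (-0.34), hepatocyte identity (-0.11), endothelial (-0.04) and tumour-raised lists (-0.40), and positive for the lipid droplet list (0.24). No call stands with this term, and slide and group cannot be told apart by any array of the compared groups.

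**Figure D4:**
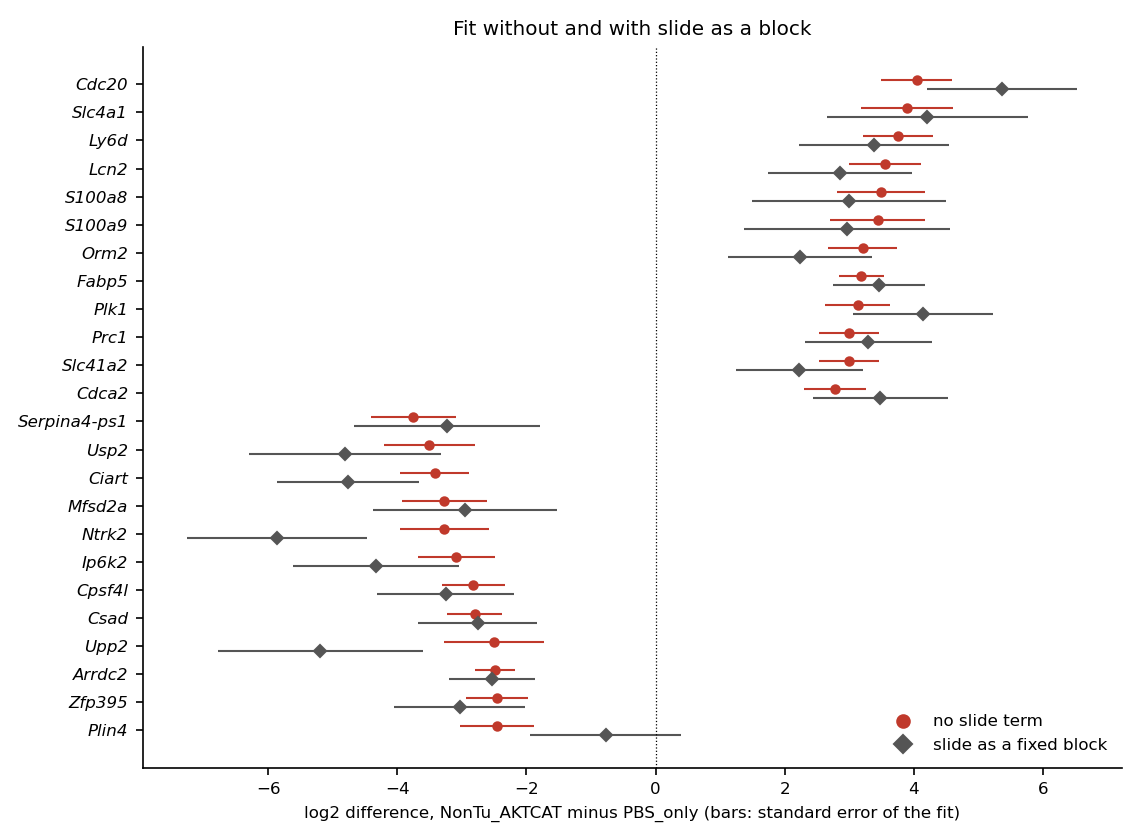
Log2 difference, non-tumoral AKT-CAT minus PBS liver, of the 12 largest rises and 12 largest falls without overlap, without a slide term (red circles) and with slide as a fixed term (grey diamonds), with bars of 1 SE. All 24, picked for a large difference without the term, kept their sign, *Cdc20* at 4.05 without the term and 5.37 with it and *Plin4* at -2.46 and -0.77.

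The same tissue was also compared where both sides had received DDC, which shares no array with the comparison above. Here too no slide held both groups: non-tumoral AKT-CAT liver with DDC lay on slide 2 and liver with DDC alone on slide 1. The effects with DDC, and the differences of effects, therefore hold any difference between the slides as well. Non-tumoral AKT-CAT liver with DDC differed from liver with DDC alone in 1650 of 10765 genes (15.3%), 963 higher (8.95%) and 687 lower (6.38%). The calls numbered 941 without replicate 2 of liver with DDC alone, and 1078 and 1027 without replicates 2 and 3 of non-tumoral AKT-CAT liver with DDC. Few calls were common: 120 genes were called in the same direction in both, which is 7.40% of the 1621 and 7.27% of the 1650, and 98 in opposite directions. With DDC, 8.95% of all genes were called higher and 6.38% lower, so the common calls are near the share over all genes. The 120 genes are therefore not read as a shared set. The difference between the effects passed its own test for 1636 genes (15.2%), 704 with a more positive effect without DDC (6.54%) and 932 with a more negative one (8.66%). Without PBS replicate 3 the number was 987.

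Mitotic genes rose without DDC and not with it. With DDC 0 of 11 G2/M genes were called and the median was 0.18, and the difference of effects was called for 7 of 11. *Cdc20* averaged 8.63 ± 0.24 in non-tumoral AKT-CAT liver with DDC and 8.45 ± 0.68 in liver with DDC alone (SD, n = 3 each), both well above its 5.07 ± 0.79 in PBS liver. Its effect with DDC was thus 0.18 ± 0.55, and the effects differed by 3.87 (adjusted p = 0.00155). Clock genes also went apart: with DDC 2 of 13 were called higher and 0 lower (median 0.50), and 7 had a more negative effect without DDC. For *Ciart* the effect with DDC was 1.87 ± 0.53 (adjusted p = 0.0159), against -3.42 without it.

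The median effect on matrix genes had the opposite sign with DDC. With DDC 0 of 23 rose and 7 fell (median -0.70), and the effects differed for 13 of 23, all more positive without DDC. The list's mean per array was 7.93 to 8.09 in non-tumoral AKT-CAT liver with DDC and 7.65 to 8.79 without it. In control liver it was 8.48 to 8.74 with DDC, against 7.30 to 7.38 in PBS liver. *Bgn* differed by -1.17 ± 0.26 with DDC (adjusted p = 0.00255), against 1.18 without it, and *Lum* by -2.85 ± 0.58 (adjusted p = 0.00116), against 1.97. For *S100a8* the effect with DDC was -1.72 ± 0.69 (adjusted p = 0.0835), and the effects differed by 5.21 ± 0.97 (adjusted p = 0.000865). *Prtn3*, a granule protease, read 9.74, 12.07 and 5.0 in non-tumoral AKT-CAT liver, against 4.75, 5.19 and 4.43 in PBS liver, where it was not detected. Replicate 3 lay within the PBS range, and the rise over the 3 arrays was at least 11.4-fold (adjusted p = 0.00545). Its effect with DDC was -0.15, and the effects differed by 4.29 (adjusted p = 0.0349).

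Wnt targets had smaller effects without DDC than with it. With DDC 11 of 19 pericentral and Wnt target genes rose (median 1.71), and 7 had a less positive effect without DDC. *Glul* differed by 3.98 ± 0.54 with DDC (adjusted p = 1.29e-05), *Axin2* by 3.03 ± 0.37 (adjusted p = 2.57e-06) and *Tbx3* by 3.12 ± 0.32 (adjusted p = 2.69e-07), where the values without DDC were 0.34, 1.0 and 1.71. Their effects differed by -3.63 (adjusted p = 0.00245), -2.04 (adjusted p = 0.00859) and -1.41 (adjusted p = 0.0326). *Gstm2* had like effects, 1.10 ± 0.21 with DDC (adjusted p = 0.000538) and 1.14 without it. *Orm2* differed by 1.82 ± 0.53 with DDC (adjusted p = 0.0179), against 3.21 without it. *Ntrk2* was lower in both, by -2.09 ± 0.69 with DDC (adjusted p = 0.0369) and -3.27 without it.

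**Figure D5:**
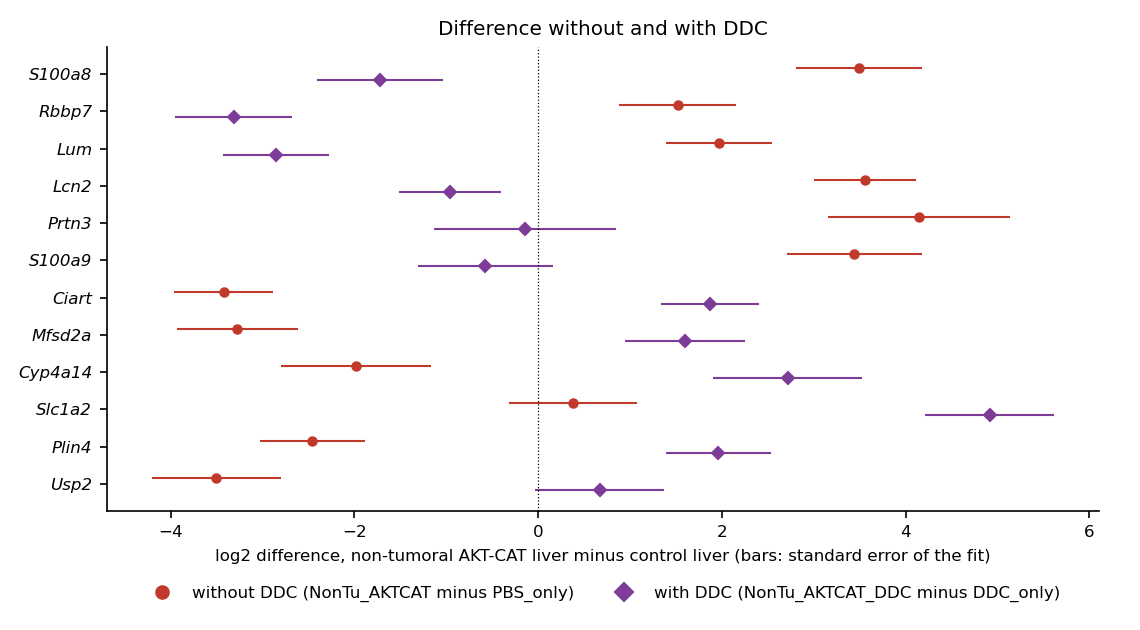
Log2 difference, non-tumoral AKT-CAT minus control liver, of the 6 genes with the most positive and the 6 with the most negative difference of effects, without DDC (red circles) and with DDC on both sides (purple diamonds), with bars of 1 SE. *S100a8* stood at 3.49 without DDC and -1.72 with it, and *Ciart* at -3.42 without DDC and 1.87 with it.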

How the data were processed

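Total RNA (RNeasy) was labelled as biotinylated cRNA and read on Illumina bead arrays, per the labels' protocols. The deposited intensities were not normalized by the authors and came from GenomeStudio, per the submitters' processing notes (version not stated). Negative values made up 24.8% to 30.2% of each array, which means that the authors subtracted a background, in a way not given in the sources used here. A detection p-value per probe was deposited beside each intensity.

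Intensities were corrected and quantile normalized with limma 3.58.1 (neqc, offset 16, negative controls inferred from detection p; R 4.3.3). Probes detected at p under 0.05 in at least 3 of 36 arrays were kept, which left 14754 with a gene symbol from the platform annotation. The probe with the highest mean stood for each of 10765 genes. One limma fit held all 36 arrays in 10 groups, with Benjamini-Hochberg adjustment over all genes and an adjusted p of 0.05 as the threshold. An exact permutation test of 3 against 3 arrays cannot go below 0.1 and was not used. A gene detected in no array of its lower group was given as at least N-fold, against the higher of each array's detection floor and its own value. The fit was tested on simulated data. Slides were read from the column names.

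The members, the 38 gene lists and the tests were chosen with earlier results of these data known. Genes were named by rule: the 12 largest rises and 12 largest falls among called genes without overlap, up to 6 called members per list and every member of lists of at most 7, the 6 most positive and 6 most negative differences of effects, and 16 fixed genes (*Akt1*, *Ctnnb1*, *Nras*, *Glul*, *Axin2*, *Lgr5*, *Cyp2e1*, *Fasn*, *Scd1*, *Srebf1*, *Xist*, *Ddx3y*, *Eif2s3y*, *Kdm5d*, *Uty*, *Alb*). Other genes, mostly list members that did not pass (*Ube2c*, *Foxm1*, *Tpx2*, *Pcna*, *Ccne1*, *Arntl*, *Clock*, *Dbp*, *Nr1d1*, *Nr1d2*, *Hlf*, *Nfil3*, *Igfbp1*, *Pck1*, *G6pc*, *Acly*, *Acaca*, *Mpo*, *Ltf*, *Acta2* and *Timp1*), were named after their values were seen. So were *Top2a* and *Bub1b*, which passed, and *Ngp*, *Elane*, *Retnlg*, *Krt19*, *Sox9*, *Cldn4*, *Cftr*, *Mmp7* and *Cd24a*, named for their detection. *Ddx3y* had no probe, and those of *Eif2s3y* and *Kdm5d* did not pass the detection filter.

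Alternatives changed the normalization, background, filter, probe rule, arrays in the fit, variance prior, slide term and replicate term, used the deposited value table, and left out each array in turn.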

Additional observations from a re-analysis of the deposited data

Results flagged for a closer look

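The effect in non-tumoral AKT-CAT liver differed between mice without and with DDC, by a test of the difference itself, for 1636 genes. Values here are the log2 effect without DDC minus that with DDC. Of the named genes, the most positive were *S100a8* (5.21), *Rbbp7* (4.83), *Lum* (4.82), *Lcn2* (4.52), *Prtn3* (4.29) and *S100a9* (4.01). *Rbbp7*, a histone-binding protein, differed by -3.31 ± 0.64 with DDC (adjusted p = 0.00073), against 1.52 ± 0.64 without it (adjusted p = 0.105).

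The most negative were *Ciart* (-5.30), *Mfsd2a* (-4.87), *Cyp4a14* (-4.70), *Slc1a2* (-4.54), *Plin4* (-4.42) and *Usp2* (-4.17). *Slc1a2*, the glutamate transporter of pericentral hepatocytes, differed by 4.92 ± 0.70 with DDC (adjusted p = 2.2e-05), against 0.38 without it. *Cyp4a14*, a fatty acid hydroxylase, read 9.77, 8.77 and 10.36 in non-tumoral AKT-CAT liver, against 12.24, 12.30 and 10.30 in PBS liver, with overlap.

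Among the largest rises without DDC, the effects also differed for *Cdc20* (3.87), *Slc4a1* (3.55), *Fabp5* (3.22), *Prc1* (2.98), *Slc41a2* (2.96), *Ly6d* (2.93), *Plk1* (2.82) and *Cdca2* (2.29). Among the largest falls they differed for *Zfp395* (-3.77), *Serpina4-ps1* (-3.33), *Csad* (-3.15), *Cpsf4l* (-2.79), *Ip6k2* (-2.71) and *Arrdc2* (-2.41). Picking these rises and falls by their effect without DDC favours such differences, so they are no separate support. The groups with and without DDC lay on different slides, except that liver with DDC alone shared slide 1 with PBS liver. With slide as a fixed term, 59 differences of effects were called.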

How the results depend on the processing

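For non-tumoral AKT-CAT against PBS liver, 1621 calls became 0 with slide as a fixed term, 223 with only the compared groups in the fit, and 857 to 1586 without 1 array at a time. The other settings gave 1519 to 1812, though median scaling split them into 133 higher and 1679 lower. For the comparison with DDC, 1650 calls became 61 with the slide term and 941 to 1587 without 1 array. The 1636 differences of effects became 59 with the slide term, 994 with only the compared groups and 987 to 1964 without 1 array. With median scaling there were 2441, of which 305 were positive and 2136 negative. Among named genes, the slide term turned *Fasn* (0.38), *Avpr1a* (-0.10), *Foxa3* (-0.043), *H2-K1* (-0.55) and *Car2* (-0.47), and median scaling turned *Nras* (-0.095). The cause was not tested.

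Of 107 named genes called, 23 kept their call under every alternative except the slide term, 29 with only the compared groups, 75 with median scaling, and 63 to 89 without 1 array. For 9 called genes with several probes, another probe went the other way: *Col3a1*, *H2-K1*, *Muc1*, *Oasl2*, *Per2*, *Sdhb*, *Stat5a*, *Tef* and *Tnfrsf10b*.

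Replicate numbers showed no pairing of the samples without DDC, and gave mixed values with it. Deviations of same-numbered arrays correlated at 0.02, -0.06 and -0.12 without DDC and 0.36, -0.01 and 0.36 with it, and 1 of 6 and 4 of 6 arrays correlated best with their own number. With the replicate block, 1627, 1670 and 1652 genes were called for the 3 comparisons. Probes near the detection floor, such as those of *Plk1*, *Slc4a1* and *Col3a1* in PBS liver, give bounds only, and 3 arrays a group limit precision.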

Other observations

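Sterol and fatty acid catabolism genes gave mixed results in non-tumoral AKT-CAT liver. Of 16 genes of cholesterol synthesis 3 rose and 2 fell (median 0.38), but with median scaling 0 rose and 3 fell (median -0.24). Without PBS replicate 2 or non-tumoral AKT-CAT replicate 1, 0 rose and 1 fell, and without PBS replicate 3 or non-tumoral AKT-CAT replicate 2, 1 rose and 1 fell. *Pmvk*, phosphomevalonate kinase, read 8.17, 8.28 and 9.07 in non-tumoral AKT-CAT liver, against 9.80, 9.66 and 9.58 in PBS liver. Its arrays did not overlap (-1.17 ± 0.27, adjusted p = 0.00395). Of 18 genes of fatty acid oxidation and PPARA 2 rose and 4 fell (median -0.12), but with median scaling 0 rose and 8 fell (median -0.77). None was called without PBS replicate 2 or non-tumoral AKT-CAT replicate 2, 0 rose without PBS replicate 3 or non-tumoral AKT-CAT replicate 1, and 4 rose and 2 fell without PBS replicate 1. *Ehhadh*, the peroxisomal bifunctional enzyme, read 8.81, 7.47 and 9.18, against 10.16, 10.58 and 9.40 in PBS liver. It did not overlap either (-1.56 ± 0.41, adjusted p = 0.0109), and lost its call without PBS replicate 2 (-1.30, adjusted p = 0.0755) or non-tumoral AKT-CAT replicate 2 (-1.05, adjusted p = 0.109).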
